A study of Mus musculus with 8 samples.

Results

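Complex I (NADH:ubiquinone oxidoreductase) is the entry enzyme of the mitochondrial respiratory chain. The genes described here are the 46 protein-coding genes of the deposited counts whose GRCm38 symbol starts with Nduf followed by a, b, c, s, v, ab or af and a number, out of 46078 gene identifiers in all. Membership was set by name alone, and the naming rule was chosen with earlier results of these data known. Of them, 38 are named as subunits and 8 as assembly factors (Ndufaf), and each of the 46 was among the 13856 genes that had enough counts to be tested. The subunit Ndufb1 was not analysed here.

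In background, complex I takes electrons from NADH, passes them along a flavin and a chain of iron-sulfur clusters to ubiquinone, and pumps protons across the inner mitochondrial membrane. The hydrophilic arm holds the N module, where NADH is oxidized, and the Q module, where ubiquinone is reduced, and the membrane arm holds the proton pumps. The core subunits are encoded partly in the nucleus and partly in mitochondrial DNA, the accessory subunits are all nuclear, and assembly factors help to build the complex but are absent from the finished enzyme. The hepatocyte is rich in mitochondria, and during fasting it draws its energy mainly from fatty acid oxidation.

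By the study's methods the livers came from LWT mice (Alb-cre negative, Rbfox2 loxP/loxP, 4 livers) and LΔRbfox2 mice (Alb-cre positive, Rbfox2 loxP/loxP, 4 livers), so that both genotypes carried the floxed alleles. All were fed a control diet (CD), for 12 weeks by the sample labels and for longer by the study's methods, which start the diets at 8 weeks of age and use males unless stated otherwise. They were harvested after 16 h of fasting, with 1 library of poly(A) RNA per liver. Cre under the albumin promoter deletes Rbfox2, which encodes an RNA-binding splicing regulator, in hepatocytes, and other liver cells keep the gene. The question addressed here is whether the mRNAs of complex I differ between these livers.

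Total counts per liver ranged from 37482458 to 56177588. Rbfox2 stood at 10.4 to 18.3 CPM (counts scaled to library size with TMM factors) in LWT livers and at 2.24 to 6.09 CPM in LΔRbfox2 livers, with no overlap. The two-sided P of an exact permutation test was 0.0286, which no comparison of 4 livers with 4 can go under, and the adjusted P was 0.504 with edgeR. The hepatocyte markers summed to between 50700 and 73900 CPM in LWT and between 57000 and 76500 CPM in LΔRbfox2 livers. Skeletal muscle markers summed to at most 0.0582 CPM, adipose markers to at most 0.494, pancreas markers to at most 0.235 and kidney markers to at most 0.0457 CPM. The 3 gut markers summed to between 50.1 and 152 CPM in LWT and between 94.2 and 232 CPM in LΔRbfox2 livers, with 1 of the 3 higher at an unadjusted P under 0.05. The defining markers Cdx2 (gut), Ucp1 (brown adipose), Cpa1 (pancreas) and Umod (kidney) were at 0 in every liver. The 3 erythroid markers summed to between 232 and 434 CPM in LWT and between 371 and 932 CPM in LΔRbfox2 livers, with 2 of the 3 higher at an unadjusted P under 0.05, and their part in the results was not tested. Of the other lists, 1 Kupffer cell marker was lower at that level. The part of the gut and Kupffer cell markers in the results was not tested. Libraries differed in their composition, with TMM factors from 0.724 to 1.141, the 2 lowest of them in LΔRbfox2 replicates 3 and 4, and 54.1% of the variance on 1 principal axis.

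The subunit mRNAs had higher mean levels in LΔRbfox2 than in LWT livers, by a median of 1.54-fold, but no member passed the test. The log2 fold change was above 0 for 36 of 38 subunits and for 8 of 8 assembly factors, against 48.4% of all genes tested. After each library was corrected for transcript length it was above 0 for 26 and 5 of them, against 6779 of all 13856 genes. With edgeR's quasi-likelihood test and Benjamini-Hochberg adjustment over all 13856 genes, 0 of the 46 members reached an adjusted P of 0.05, as did 0% of all genes. Adjusted P from this test ran from 0.504 to 0.936 over the members. With the DESeq2 test, 0 members and 0.0722% of all genes (10 genes) reached it.

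At an unadjusted P under 0.05, 18 subunits (47.4%) and 3 assembly factors (37.5%) were higher in LΔRbfox2 livers, against 7.95% of all genes. In the other direction there were 0 members, against 1.83% of all genes. For no member did the livers of the genotypes separate completely, which is near the share over all genes. The values of 1.05% of all genes lay wholly higher and those of 1.23% wholly lower in LΔRbfox2 livers. The median log2 fold change was 0.62 for the subunits and 0.49 for the assembly factors, beside −0.015 for all genes tested. A lower or higher number of cells of 1 type cannot be told apart from less or more RNA per cell in whole liver.

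**Figure D1:**
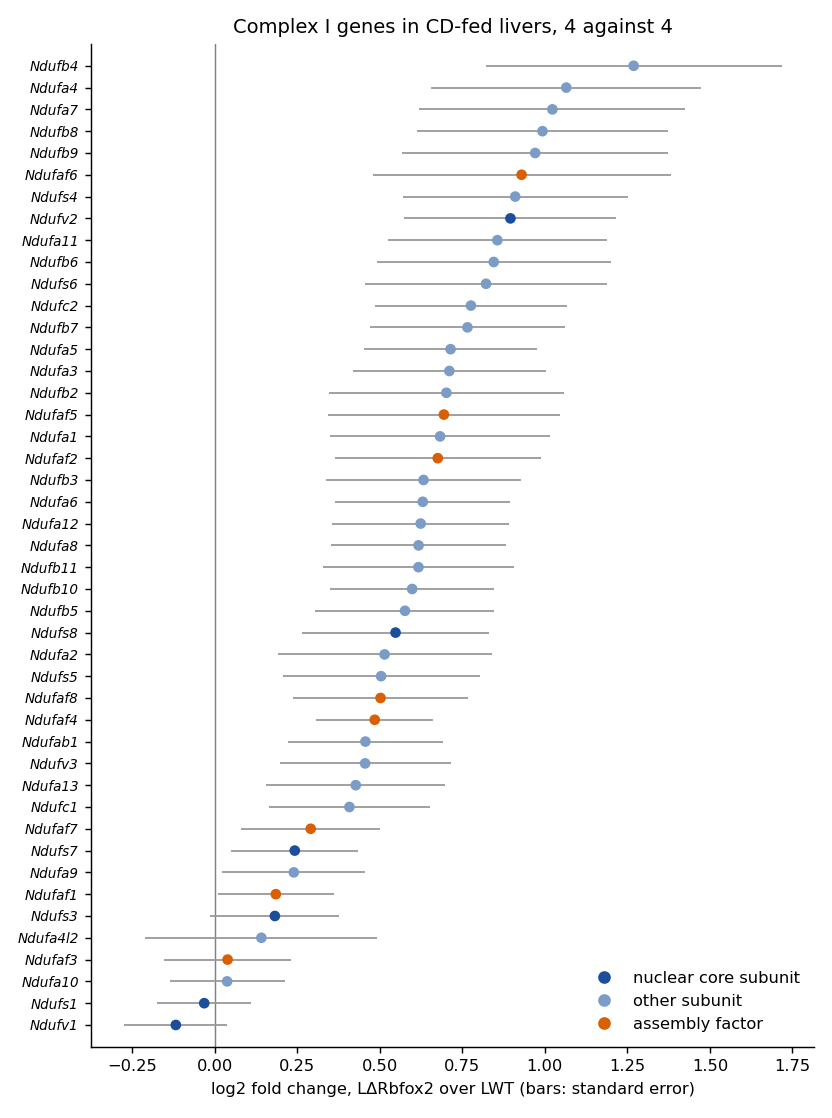
Log2 fold change of single complex I genes between LΔRbfox2 and LWT livers (horizontal axis, 4 livers against 4), sorted by size, with bars for the standard error from limma-voom. All but Ndufs1 and Ndufv1 lie above 0, and Ndufb4 is highest at 1.27. After correction for transcript length, 31 of all 46 members were above 0, beside 6779 of all 13856 genes.

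The range of the livers of each genotype was larger than the difference between the genotypes. For each liver, the median over the 38 subunits of the log2 CPM, taken relative to each gene's mean of the 8 livers, was −0.60, 0.23, −0.24 and −0.59 in LWT replicates 1 to 4. In LΔRbfox2 replicates 1 to 4 it was 0.34, −0.42, 0.56 and 0.70. LWT replicate 2 thus lay above LΔRbfox2 replicate 2, which was the only liver of its genotype on the low side.

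The subunits together summed to 1649, 2823, 2073 and 1602 CPM in LWT replicates 1 to 4, and to 3084, 1808, 3519 and 4241 CPM in LΔRbfox2 replicates 1 to 4. LΔRbfox2 replicate 4 had the highest value for 26 of the 38 subunits and LΔRbfox2 replicate 3 for 8. LWT replicate 1 had the lowest value for 19 subunits and LWT replicate 4 for 15. The 8 assembly factors were highest in LΔRbfox2 replicate 4 (5 genes) or replicate 3 (3 genes), and lowest in LWT replicate 4 for 5 genes.

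**Figure D2:**
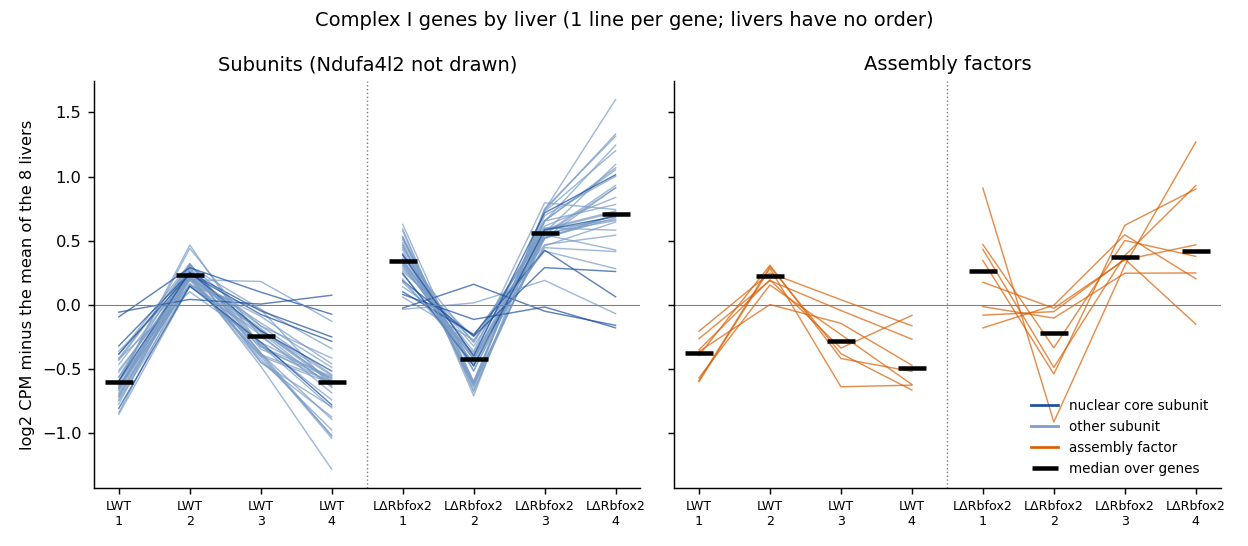
Level of single subunits (left) and assembly factors (right) in each liver, as log2 CPM minus the gene's mean over the 8 livers, with 1 line per gene and a black bar for the median of the genes drawn. Most subunits share 1 pattern, low in LWT replicates 1 and 4 and LΔRbfox2 replicate 2 and high in LΔRbfox2 replicates 3 and 4, and a few core subunits stay near 0 throughout. Ndufa4l2, with under 1 CPM, is not drawn.

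The 7 nuclear core subunits carry the cofactors and the catalytic sites. Their median log2 fold change was 0.18, and 1 of 7 was higher at an unadjusted P under 0.05, against 7.95% of all genes. The 31 other subunits had a median of 0.63, with 17 at that level. The core transcripts were longer, with a median of 1623 bases against 763, and after correction for transcript length the medians were −0.069 and 0.12, with 1 and 2 genes at that level.

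Ndufv1 binds the flavin that accepts electrons from NADH. Its level was 79.8, 104, 91.2 and 81.0 CPM in LWT replicates 1 to 4 and 90.1, 78.8, 84.2 and 75.2 CPM in LΔRbfox2 replicates 1 to 4. The groups overlapped and the lowest liver was LΔRbfox2 replicate 4, the liver that was highest for most other subunits. The log2 fold change was −0.12 ± 0.16 (SE), the lowest of all members.

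Ndufs1, the largest subunit, carries iron-sulfur clusters that receive the electrons next. It stood at 72.4, 77.6, 75.6 and 79.4 CPM in LWT and at 74.0, 84.2, 72.8 and 67.4 CPM in LΔRbfox2 livers, in replicate order. Its log2 fold change was −0.031 ± 0.14 (SE). LΔRbfox2 replicate 2 was the highest liver for this gene, which was the case for no other subunit.

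Ndufv2, an iron-sulfur protein that sits beside Ndufv1 in the N module, differed most among the core subunits. It stood at 57.4, 111, 82.0 and 58.4 CPM in LWT livers. In LΔRbfox2 livers it stood at 131, 76.2, 165 and 202 CPM (mean 144 ± 53.6, SD, n = 4, against 77.2 ± 25.2). Every LΔRbfox2 liver but replicate 2 lay above every LWT liver. The log2 fold change was 0.90 ± 0.32 (SE, adjusted P = 0.504 with edgeR's quasi-likelihood test), and the two-sided exact permutation P was 0.0857.

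The Q module core subunits had smaller differences. Ndufs3 stood at 57.4 to 85.1 CPM in LWT and at 61.0 to 96.2 CPM in LΔRbfox2 livers (log2 fold change 0.18 ± 0.20, SE). Ndufs7, which holds the last iron-sulfur cluster before ubiquinone, had 0.24 ± 0.19 (SE). Ndufs8, another iron-sulfur protein of this module, had 0.55 ± 0.28 (SE), with 23.3, 41.9, 30.5 and 24.5 CPM in LWT and 41.6, 25.2, 52.6 and 56.5 CPM in LΔRbfox2 livers. Each overlapped between the genotypes.

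Across modules, the median log2 fold change was 0.63 for the 10 N module genes and 0.24 for the 5 Q module genes. It was 0.62 for the 9 genes of the proximal and 0.73 for the 10 genes of the distal membrane arm. At an unadjusted P under 0.05 there were 6 of 10, 1 of 5, 4 of 9 and 6 of 10 genes, in that order, against 7.95% of all genes. The distal arm, built of Ndufb subunits around the mitochondrially encoded proton pumps, had every gene between 0.58 and 1.27. After correction for principal transcript length the module medians were 0.18, −0.069, 0.088 and 0.19, with 2, 0, 0 and 1 genes higher at an unadjusted P under 0.05, against 6.37% of all genes.

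Ndufb4, an accessory subunit of the distal membrane arm, had the largest log2 fold change of all members. The gene lies on the minus strand of chromosome 16 (GRCm38), from 37647170 to 37654453. It stood at 30.2, 63.5, 38.9 and 22.3 CPM in LWT and at 83.6, 35.6, 90.3 and 164 CPM in LΔRbfox2 livers, in replicate order. The range within LΔRbfox2 livers was wider than the distance between the means, and replicate 2 lay within the LWT range. The means were 38.7 ± 17.9 and 93.4 ± 53.0 CPM (SD, n = 4), a ratio of 2.41 (log2 fold change 1.27 ± 0.45, SE, adjusted P = 0.504 with edgeR, permutation P = 0.0857). The annotated copy Ndufb4c, which can share reads with Ndufb4, had 209, 609, 389 and 178 counts in LWT and 732, 447, 597 and 1161 counts in LΔRbfox2 livers, so that the split between the copies is uncertain.

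Ndufa4 matches the naming rule but is now known as a subunit of cytochrome c oxidase (complex IV). Its level was 150, 282, 187 and 122 CPM in LWT and 368, 151, 412 and 621 CPM in LΔRbfox2 livers. The 8 livers stood in the same order as for Ndufb4, with a log2 fold change of 1.07 ± 0.41 (SE). Its paralogue Ndufa4l2, known as a hypoxia-responsive gene, was at most 0.617 CPM in any liver, and its log2 fold change of 0.14 had a standard error of 0.35. Without these 2 genes the median over the remaining 36 subunits was 0.62, with 17 at an unadjusted P under 0.05.

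Ndufa7, an accessory subunit of the hydrophilic arm, stood at 32.0 to 77.9 CPM in LWT and at 42.0 to 162 CPM in LΔRbfox2 livers, a ratio of means of 2.03 (log2 fold change 1.02 ± 0.40, SE). The distal arm subunits Ndufb8 and Ndufb9 had ratios of 1.99 and 1.96. Ndufb9, which belongs to the LYR motif protein family, stood at 148 ± 60.1 CPM in LWT and 290.2 ± 136 CPM in LΔRbfox2 livers (SD, n = 4). In all 3, as in Ndufb4 and Ndufa4, LΔRbfox2 replicate 4 was highest and LWT replicate 4 lowest.

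Ndufa10, an accessory subunit related to deoxynucleoside kinases, was close to level. It stood at 57.8 to 85.1 CPM in LWT and at 70.8 to 84.7 CPM in LΔRbfox2 livers (log2 fold change 0.038 ± 0.17, SE). Ndufab1, the mitochondrial acyl carrier protein, which also serves fatty acid synthesis in the matrix, stood at 36.97, 62.4, 48.2 and 37.95 CPM in LWT livers. In LΔRbfox2 livers it stood at 58.6, 45.1, 73.6 and 77.5 CPM, with a log2 fold change of 0.46 ± 0.23 (SE). Its values overlapped, since 2 of the 4 LΔRbfox2 livers lay above every LWT liver.

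The remaining accessory subunits are given by module, and each overlapped between the genotypes. In the N module, Ndufs4, whose loss in mice is used as a model of Leigh syndrome, stood at 34.2, 61.3, 38.8 and 28.9 CPM in LWT and at 75.9, 36.9, 83.3 and 111 CPM in LΔRbfox2 livers (log2 fold change 0.91 ± 0.34, SE). Ndufs6, which holds a zinc ion, stood at 35.7, 69.95, 46.3 and 33.0 CPM in LWT and at 83.0, 36.3, 85.0 and 123 CPM in LΔRbfox2 livers (0.82 ± 0.37, SE). In both, the LΔRbfox2 livers other than replicate 2 lay above every LWT liver. Ndufa6, a LYR motif protein that binds the acyl carrier, had a log2 fold change of 0.63 ± 0.26, and Ndufa12, a paralogue of the assembly factor Ndufaf2, had 0.62 ± 0.27 (SE). Ndufa2 had 0.51 ± 0.32 and Ndufv3 had 0.46 ± 0.26 (SE), neither at an unadjusted P under 0.05. In the Q module, Ndufa5 had 0.71 ± 0.26 (SE), with 22.1 to 39.0 CPM in LWT and 28.3 to 57.2 CPM in LΔRbfox2 livers. It was the only gene of that module at an unadjusted P under 0.05, and the only one that is not a core subunit.

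In the proximal membrane arm, Ndufa11, which contributes to the contact of complex I with other respiratory complexes, stood at 17.0, 34.0, 26.2 and 19.1 CPM in LWT and at 40.1, 22.1, 48.5 and 63.8 CPM in LΔRbfox2 livers (log2 fold change 0.86 ± 0.33, SE). Ndufc2 stood at 25.0, 47.9, 31.8 and 27.5 CPM in LWT and at 52.5, 32.4, 72.2 and 69.6 CPM in LΔRbfox2 livers (0.78 ± 0.29, SE), with a two-sided exact permutation P of 0.0571. Here too LΔRbfox2 replicate 2 was the liver within the LWT range. Ndufa3 and Ndufa8 had log2 fold changes of 0.71 ± 0.29 and 0.62 ± 0.27 (SE). Ndufa1, an X-linked subunit with the shortest transcript of all members (419 bases), had 0.68 ± 0.33 (SE), and Ndufs5 had 0.50 ± 0.30. Ndufa13, also known as GRIM-19 and linked to cell death, had 0.43 ± 0.27, and Ndufc1 had 0.41 ± 0.24 (SE). Of this arm, Ndufa3, Ndufa8, Ndufa11 and Ndufc2 had an unadjusted P under 0.05.

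In the distal membrane arm, Ndufb6 stood at 27.6, 54.0, 32.1 and 25.3 CPM in LWT and at 62.3, 28.8, 70.9 and 87.7 CPM in LΔRbfox2 livers (log2 fold change 0.85 ± 0.35, SE). Ndufb7, which is held by disulfide bonds on the intermembrane side, stood at 27.3, 51.7, 33.6 and 29.0 CPM in LWT and at 60.4, 33.4, 67.9 and 79.3 CPM in LΔRbfox2 livers (0.77 ± 0.29, SE). The livers again stood apart in the same way, with LΔRbfox2 replicate 2 among the LWT livers. Ndufb2 had 0.70 ± 0.36, Ndufb3 0.63 ± 0.29 and Ndufb11, an X-linked gene, 0.62 ± 0.29 (SE). Ndufb10 and Ndufb5 had 0.60 ± 0.25 and 0.58 ± 0.27 (SE). Ndufa9, a nucleotide-binding subunit at the joint of the arms that was put in no module here, stood at 54.4, 89.3, 70.9 and 57.3 CPM in LWT and at 75.8, 60.1, 97.1 and 88.3 CPM in LΔRbfox2 livers, with 0.24 ± 0.22 (SE).

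Compared per length, as the mean CPM in LWT livers per kilobase of the principal transcript, Ndufa4 was the most abundant member at 304, followed by Ndufb9 at 210. Ndufa6, Ndufa7, Ndufb10 and Ndufa3 followed at 95.6, 93.8, 86.9 and 84.7 CPM per kilobase, and these neighbours differed by less than the spread between livers. Apart from Ndufb2 and Ndufa4l2, the subunits stood at 13.3 CPM per kilobase (Ndufab1) or more. The 8 assembly factors stood lower, between 1.78 (Ndufaf5) and 8.98 CPM per kilobase (Ndufaf2). The value of 3.34 for Ndufb2 rests on an annotated transcript of 4371 bases, of which 315 are coding.

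**Figure D3:**
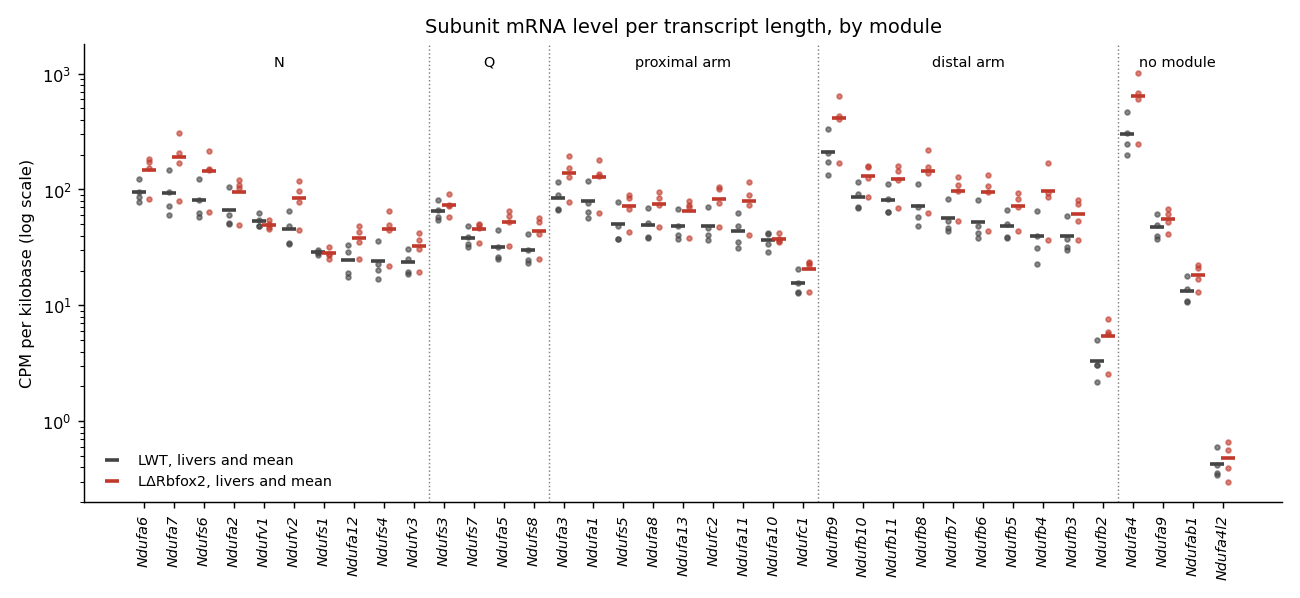
Level of single subunits as CPM per kilobase of the principal transcript (log scale), grouped by module and sorted within each by the LWT mean, with a point per liver and a bar for the mean of each genotype. Ndufb9 stands highest in the distal arm at 210 in LWT livers, Ndufa4 highest of all at 304, and Ndufa4l2 lowest at 0.431.

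The assembly factors act at successive steps. Ndufaf3 and Ndufaf4 bind early Q module intermediates, Ndufaf5 and Ndufaf7 modify core subunits, and Ndufaf8 is a partner of Ndufaf5. Ndufaf1 belongs to the assembly complex for the membrane arm, Ndufaf2 binds a late intermediate, and Ndufaf6 is required for early steps.

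Ndufaf6 had the largest difference, with 5.07, 9.34, 4.93 and 4.97 CPM in LWT and 14.4, 4.08, 9.48 and 18.5 CPM in LΔRbfox2 livers. LΔRbfox2 replicate 2 was the lowest of the 8 livers, and the other 3 lay above every LWT liver. The log2 fold change was 0.93 ± 0.45 (SE), with a two-sided exact permutation P of 0.229.

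Ndufaf4 was the assembly factor with the smallest unadjusted P. It stood at 15.7, 20.2, 18.2 and 14.5 CPM in LWT and at 22.8, 19.8, 25.7 and 27.8 CPM in LΔRbfox2 livers. The groups overlapped only through LΔRbfox2 replicate 2 and LWT replicate 2 (log2 fold change 0.49 ± 0.18, SE, adjusted P = 0.504 with edgeR, two-sided exact permutation P = 0.0571).

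Ndufaf2, at 6.09 ± 1.58 CPM in LWT and 9.75 ± 3.60 CPM in LΔRbfox2 livers (SD, n = 4), had a log2 fold change of 0.68 ± 0.31 (SE). Ndufaf5 had 0.69 ± 0.35 and its partner Ndufaf8 had 0.50 ± 0.26 (SE). Ndufaf7 and Ndufaf1 followed at 0.29 ± 0.21 and 0.19 ± 0.18 (SE). Ndufaf3 was nearly level, at 5.33 ± 0.788 and 5.48 ± 0.931 CPM (SD, n = 4, log2 fold change 0.040 ± 0.19, SE).

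Assembly genes with other names gave a mixed picture. Of the 11 tested, 7 had a log2 fold change above 0, against 48.4% of all genes, with a median of 0.31. At an unadjusted P under 0.05, 3 were higher, against 7.95% of all genes. After correction for principal transcript length the median was 0.14, with 8 above 0. At that level 2 were then higher, against 6.37% of all genes. Tmem126a, which acts in building the distal membrane arm, had 1.05 ± 0.38 (SE), from 14.6 ± 5.62 to 30.2 ± 14.6 CPM (SD, n = 4). Dmac1, another gene of that arm, had 0.80 ± 0.31, and Tmem70 had 0.70 ± 0.31 (SE). Acad9, which joins Ndufaf1 in the membrane arm assembly complex, had −0.22 ± 0.23, and Nubpl, which supplies iron-sulfur clusters, had −0.0095 ± 0.24 (SE).

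The 7 subunits encoded in mitochondrial DNA form the membrane core of the enzyme. Their log2 fold changes lay between 0.16 (mt-Nd6) and 0.75 (mt-Nd3), with a median of 0.20. That direction depended on the scaling, since 1 of 7 (mt-Nd5) was above 0 after correction for transcript length. Only mt-Nd3 had an unadjusted P under 0.05, with 536, 653, 687 and 472 CPM in LWT and 857, 614, 1114 and 1377 CPM in LΔRbfox2 livers. mt-Nd1 stood at 2931 ± 145 CPM in LWT and 3409 ± 506 CPM in LΔRbfox2 livers (SD, n = 4).

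Taken by their median, the mitochondrially encoded subunits differed from the nuclear subunits in which livers were high. That median relative level was highest in LΔRbfox2 replicate 2 (0.27), where the nuclear subunits were low, and lowest in LWT replicate 2 (−0.23), where the nuclear subunits were high. For mt-Nd4 these livers stood at 4915 and 3011 CPM, the highest and lowest of the 8, as they also were for mt-Nd4l and mt-Nd5. The other genes followed this order in part or not at all. mt-Nd1 was lowest in LΔRbfox2 replicate 1 (2664 CPM) and mt-Nd2 highest in LΔRbfox2 replicate 4 (4670 CPM). mt-Nd6 was highest in LΔRbfox2 replicate 4 (78.8 CPM) and lowest in LWT replicate 3 (46.3 CPM). mt-Nd3 came closer to the order of the nuclear subunits. It was low in LWT replicates 1 and 4 and LΔRbfox2 replicate 2 and high in LΔRbfox2 replicates 3 and 4. Reads that mt-Nd4 shares with the adjoining mt-Nd4l are uncertain.

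Complex I mRNAs are short, and the difference between the genotypes moved with transcript length over all genes. The 12143 tested genes that had a principal transcript length were split by it into 5 groups of nearly equal size. The median log2 fold change went from 0.35 in the shortest (117 to 1697 bases) through 0.042, −0.057 and −0.13 to −0.22 in the longest. Of the 46 members, 39 lay in the shortest group, where 21% of the 2429 genes were higher at an unadjusted P under 0.05. The median length was 921 bases for the subunits and 1308.5 for the assembly factors, beside 2981 for all genes with a length.

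Within the subunits the same relation held as a description. The 22 subunits under 1000 bases had a median log2 fold change of 0.71, with 15 at an unadjusted P under 0.05, and the 16 longer ones had 0.44, with 3. Across the 38 subunits, Spearman's rho between log2 fold change and principal transcript length was −0.523, and with coding length it was −0.418. Over 12143 genes with a length, the values were −0.463 and −0.528. Genes within these 8 libraries are not independent of each other.

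Livers ranked by transcript length much as they ranked by complex I. The median relative level of the shortest group of genes minus that of the longest was −0.73, 0.43, −0.17 and −0.67 on the log2 scale in LWT replicates 1 to 4. It was 0.15, −0.51, 0.80 and 0.69 in LΔRbfox2 replicates 1 to 4. The 4 lowest livers, LWT replicates 1 and 4, LΔRbfox2 replicate 2 and LWT replicate 3, stood in the same order by both measures.

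After correction of each library for principal transcript length, which was chosen after seeing the data, the median log2 fold change was 0.11 for the subunits and 0.099 for the assembly factors. Of the subunits, 26 of 38 were above 0, beside 6779 of all 13856 genes. At an unadjusted P under 0.05, 3 subunits were higher, against 6.37% of all genes. These were Ndufb4 (0.78), Ndufs4 (0.75) and Ndufv2 (0.73), and the only assembly factor was Ndufaf4 (0.57), each with an adjusted P of 0.554 from edgeR. All of these genes have untranslated parts longer than their coding part in the annotation. Their coding length is 387 of 971 bases for Ndufb4, 525 of 1698 for Ndufs4, 744 of 1697 for Ndufv2 and 519 of 3632 for Ndufaf4.

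**Figure D4:**
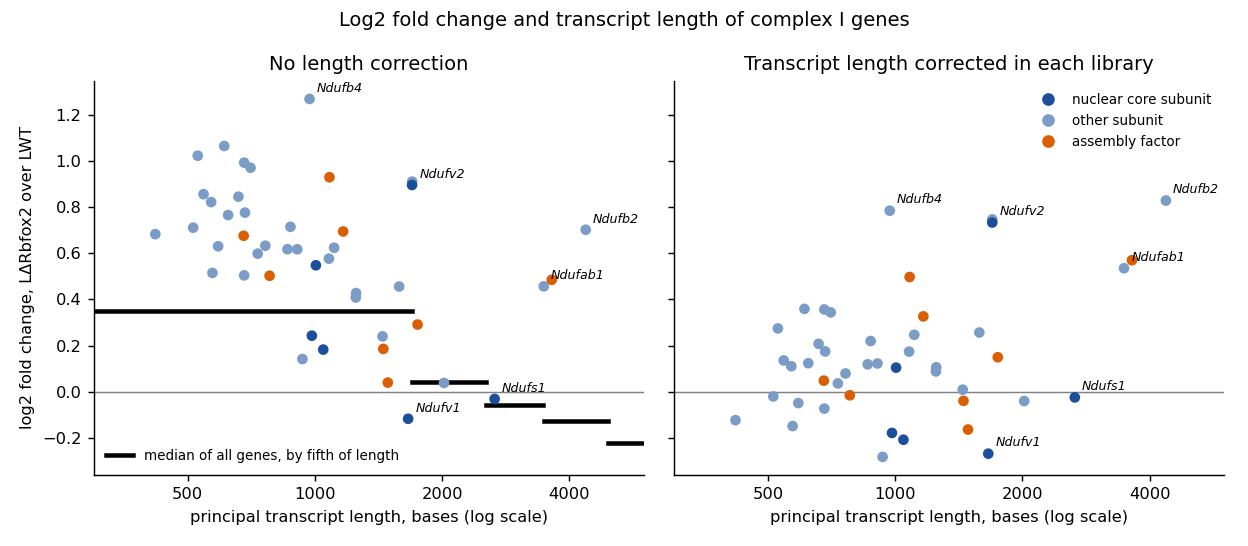
Log2 fold change of single complex I genes against the length of the principal transcript in bases (log scale), without correction (left) and after each library was corrected for that length (right), with black bars for the median of all genes in each of the 5 length groups. The subunits under 1000 bases lie mostly above the bar of the shortest group on the left, and on the right most lie closer to 0.

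Other lists of mostly short transcripts are set beside complex I. The nuclear subunits of complexes II to V had a median log2 fold change of 0.72, with 23 of 43 higher at an unadjusted P under 0.05, against 7.95% of all genes. The mitochondrial ribosome had 0.54 (27 of 77) and the cytosolic ribosome list, which is outside the mitochondrion, had 0.81 (60 of 94). The cytosolic list holds all protein-coding symbols that start with Rpl or Rps and then a number or p. It can include genes that do not encode ribosomal proteins. After correction for transcript length the medians were 0.16, 0.19 and 0.29, with 4, 15 and 28 genes higher at that level, beside 0.11 and 3 for the complex I subunits and 6.37% of all genes. In LΔRbfox2 replicate 4 the medians relative to the 8 livers were 0.82, 0.67 and 0.98 for these lists and 0.70 for the complex I subunits. In LWT replicate 1 they were −0.59, −0.55 and −0.61, beside −0.60. No difference between complex I and these lists was tested.

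**Figure D5:**
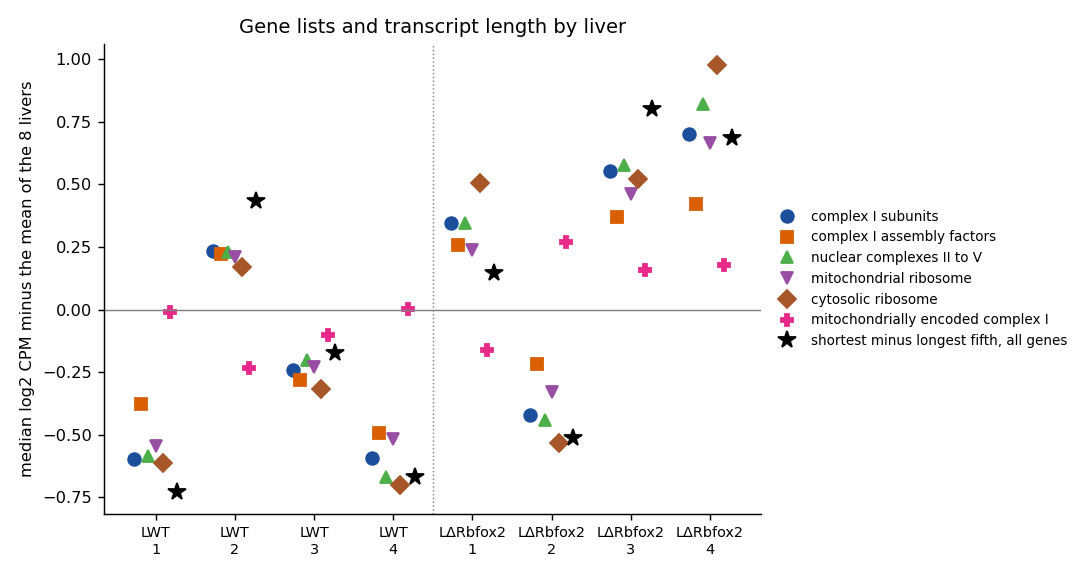
Median log2 CPM relative to the mean of the 8 livers, for each liver and gene list, with stars for the shortest minus the longest of the 5 length groups of all genes with a length. The nuclear lists and the stars move together from liver to liver, and the median of the mitochondrially encoded subunits (pink) does not follow them.

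The counts of members depended on single livers. With 1 liver left out, the subunits at an unadjusted P under 0.05 went from 18 to 1, 30, 9 and 2 without LWT replicates 1 to 4, and to 10, 30, 1 and 0 without LΔRbfox2 replicates 1 to 4. The share of all genes at that level in each of these fits is not given here. These counts therefore describe the dependence on single livers and are not a result about complex I apart from other genes. The median log2 fold change of the subunits stayed between 0.48 and 0.82. Exons of 16 members overlap exons of other annotated genes, among them Ndufs1 (Eef1b2), Ndufs3 (Kbtbd4), Ndufaf3 (Impdh2) and Ndufa4l2 (Shmt2), and the strand setting of the counting is not given in the sources used here, so reads in those overlaps are uncertain.

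Nuclear genes of the respiratory chain are known targets of NRF1, GABP (an ETS factor), YY1, CREB and the oestrogen-related receptors. RefSeq promoters of 300 bases (GRCm38.p6, 250 before to 50 after the start) were matched for 40 members, which had 42 promoters. Each motif was searched on both strands. The member promoters had a median GC content of 59.3%, against 52.7% for all promoters, and the shares were not adjusted for it. The NRF1 core GCGCATGC was found in 5 of 42 (11.9%), against 2.71% of all 32851 promoters, and the ETS motif CCGGAAG in 6 (14.3%), against 8.86%. The YY1 motif AAGATGGCG was found in 6 (14.3%, against 1.40%), the CREB motif TGACGTCA in 3 (7.14%, against 1.79%) and the receptor motif TCAAGGTCA in 0 (against 0.423%). No promoter was matched for Ndufa2, Ndufa4l2, Ndufaf6, Ndufb9 and Ndufs1.

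The genes holding a motif had log2 fold changes from 0.038 to 0.91, where all members ran from −0.12 to 1.27. The log2 fold changes ran from 0.49 (Ndufaf4) to 0.86 (Ndufa11) for the 5 genes with the NRF1 core, from 0.18 (Ndufs3) to 0.85 (Ndufb6) for the 6 with the ETS motif, and from 0.24 (Ndufa9) to 0.91 (Ndufs4) for the 6 with the YY1 motif. The CREB genes were Ndufa10 (0.038), Ndufb2 (0.70) and Ndufa11 (0.86). A match is a description of the letters and not of binding.

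The sequences printed here are the 160 bases before the RefSeq start of 5 genes, 5′ to 3′ on the gene's own strand. Motif letters are in capitals and everything else is in lower case. The sequences are shown because each motif pair sets a gene with a larger difference beside one with a smaller difference. Except for Ndufa11, part of each stretch lies inside the gene as GENCODE annotates it. So do the ETS motifs of Ndufb7 and Ndufs3 and the CREB motif of Ndufa10. Ndufa11 (log2 fold change 0.86, chr17:56717602-56717761, plus strand) holds the CREB motif and the NRF1 core in overlapping copies on both strands, Ndufa10 (0.038, chr1:92473759-92473918, minus strand) the CREB motif, Ndufa6 (0.63, chr15:82354292-82354451, minus strand) the NRF1 core on the other strand, and Ndufb7 (0.77, chr8:83566598-83566757, plus strand) and Ndufs3 (0.18, chr2:90904722-90904881, minus strand) the ETS motif.
Ndufa11: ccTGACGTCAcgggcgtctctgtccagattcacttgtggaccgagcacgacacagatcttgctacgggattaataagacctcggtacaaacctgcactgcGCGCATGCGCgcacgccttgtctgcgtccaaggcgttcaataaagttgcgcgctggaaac
Ndufa10: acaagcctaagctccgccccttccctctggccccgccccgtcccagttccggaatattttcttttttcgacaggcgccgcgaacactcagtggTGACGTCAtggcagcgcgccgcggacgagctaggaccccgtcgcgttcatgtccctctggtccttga
Ndufa6: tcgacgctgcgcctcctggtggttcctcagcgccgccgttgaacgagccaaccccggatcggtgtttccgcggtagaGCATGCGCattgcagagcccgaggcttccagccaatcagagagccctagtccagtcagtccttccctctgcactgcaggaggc
Ndufb7: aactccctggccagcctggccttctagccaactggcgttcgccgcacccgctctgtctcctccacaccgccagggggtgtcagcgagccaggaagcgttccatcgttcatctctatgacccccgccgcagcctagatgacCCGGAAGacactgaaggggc
Ndufs3: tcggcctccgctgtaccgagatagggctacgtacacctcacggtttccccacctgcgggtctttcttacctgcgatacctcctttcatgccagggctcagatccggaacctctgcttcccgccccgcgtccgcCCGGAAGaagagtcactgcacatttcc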

How the data were processed

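RNA-seq of 8 livers was used, 4 of each genotype by the labels. The authors enriched poly(A) RNA, sequenced 100-base paired ends, aligned them with TopHat2 2.0.11 to GRCm38, and deposited featureCounts counts per gene, as whole numbers without normalization. The strand and multi-mapping settings are not given in the sources used here. Total counts had a median of 42589090, and 3 counts correspond to 0.053 to 0.080 CPM (counting error only). Other diets, splicing and proteomic data were not analysed here.

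Counts were analysed with edgeR 4.0.16 in R 4.3.3: filterByExpr (minimum count 10, minimum total 15), TMM factors, glmQLFit and glmQLFTest with genotype alone, and Benjamini-Hochberg adjustment over 13856 genes, threshold 0.05. Standard errors came from limma-voom (limma 3.58.1). Each library's relative levels are log2 CPM with a prior count of 2. Nothing states how animals relate. The P values set the genotype difference against the spread between these livers, each treated as independent. GENCODE M21 gave symbols and lengths for 45229 of 46078 identifiers, and the principal transcript is the longest of the best APPRIS rank. No library was a copy of another, as chi-square over its degrees of freedom was at least 107.6 within a genotype. All columns of the counts were matched to livers by name. Tests were tried on simulated data.

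Genes named are the 7 nuclear core subunits, the 5 subunits of largest and of smallest log2 fold change, every assembly factor, Ndufab1, Ndufa4 and Ndufa4l2, the mt-Nd genes and Rbfox2. The remaining members are named beyond that rule, and other genes as examples of a list, chosen after their values were seen. Single results for some genes are not reported here, although the counts over lists include them. The members and lists were chosen with earlier results of these data known. Alternatives were DESeq2 (1.42.0) and upper-quartile factors, DESeq2 and limma-voom tests, other filters, robust estimation, a replicate block, exon length and GC corrections (lowess, span 0.3) and each liver left out. The principal transcript length correction was added after seeing the data. Permutation tests went through every split of the livers with numpy 2.4.6. Spearman's rho used scipy 1.17.1, figures matplotlib 3.10.9 and tables pandas 2.3.3, in Python 3.11.15.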

Additional observations from a re-analysis of the deposited data

Results flagged for a closer look

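In each genotype's 4 livers, a liver far from the other 3 by Dixon's ratio was sought for the 46 members, the 7 mt-Nd genes and Rbfox2 (108 groups of 4), of which chance gives about 5.4, and 5 were found. Ndufaf3 stood at 6.86 CPM in LΔRbfox2 replicate 3, where the other LΔRbfox2 livers lay between 4.83 and 5.17. Ndufaf6 was at 9.34 CPM in LWT replicate 2, with the others between 4.93 and 5.07. In the same liver Ndufaf8 was at 8.30 CPM, against 4.67 to 5.09, and mt-Nd4l was at 444 CPM, against 557 to 567. Ndufc1, an accessory subunit of the proximal membrane arm, was at 16.3 CPM in LΔRbfox2 replicate 2, against 27.9 to 29.7. The first 3 were high livers and the last 2 low ones. Why these livers stood apart was not tested.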

How the results depend on the processing

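No member reached an adjusted P of 0.05 with edgeR, DESeq2 or limma-voom under any alternative. Over all genes the DESeq2 test gave 10 and edgeR 0. The subunits higher at an unadjusted P under 0.05 numbered 18, and 9 after exon length correction, 3 after principal transcript length correction (median log2 fold change 0.11), and 0 to 30 with each liver left out. Of all 13856 genes, 1102 were higher at that level, 801 after exon length correction and 882 after principal transcript length correction. The number with a liver left out is not given here. Of the 3 assembly factors there were 1 with upper-quartile factors, limma-voom, both length and GC corrections, or principal length correction (median 0.099, 5 of 8 above 0), 0 with GC correction and 0 to 5 with each liver left out. The same-numbered livers come from different animals, their deviations correlated at 0.127, −0.613, 0.122 and −0.514, and 1 of 8 livers correlated best with its own number. With the replicate block 0 subunits and 0 assembly factors reached that level, also with both corrections, and the median of the subunits was 0.61. With the block alone, 335 of all 13856 genes were at that level, higher or lower. Rbfox2 passed the threshold with DESeq2 (log2 fold change −1.82, adjusted P = 2.3e-04).

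Of the values of the members reported singly, the 7 mt-Nd genes and Rbfox2, 417 of 424 with a liver left out and 627 of 689 under other alternatives kept their direction and side of the threshold. The rest changed sign, Rbfox2 apart, and the cause was not tested. Exon length correction gave Ndufa10 −0.00090, Ndufa2 −0.0070, Ndufa4l2 −0.20, Ndufaf1 −0.087, Ndufaf3 −0.18, Ndufs1 0.098, Ndufs7 −0.0038, mt-Nd1 −0.14, mt-Nd2 −0.16, mt-Nd4 −0.098, mt-Nd4l −0.34, mt-Nd5 −0.0075 and mt-Nd6 −0.40. Principal length correction gave Ndufa1 −0.12, Ndufa10 −0.040, Ndufa2 −0.15, Ndufa3 −0.021, Ndufa6 −0.049, Ndufs5 −0.073, Ndufa4l2 −0.28, Ndufaf1 −0.040, Ndufaf3 −0.16, Ndufaf8 −0.015, Ndufs3 −0.21, Ndufs7 −0.18, mt-Nd1 −0.19, mt-Nd2 −0.19, mt-Nd3 −0.13, mt-Nd4 −0.064, mt-Nd4l −0.54 and mt-Nd6 −0.57. Both length and GC corrections gave Ndufc1 −0.0090, Ndufaf1 −0.15, Ndufaf3 −0.021, Ndufs1 0.0032, mt-Nd1 −0.39, mt-Nd2 −0.45, mt-Nd3 −0.24, mt-Nd4 −0.37, mt-Nd4l −0.51, mt-Nd5 −0.27 and mt-Nd6 −0.72. With the replicate block and both corrections these were −0.015, −0.16, −0.030, 0.0060, −0.53, −0.55, −0.27, −0.50, −0.74, −0.40 and −0.75. GC correction alone gave mt-Nd1 −0.042, mt-Nd2 −0.10, mt-Nd4 −0.098, mt-Nd4l −0.0023, mt-Nd5 −0.036 and mt-Nd6 −0.20, and upper-quartile factors gave Ndufa10 −0.0059 and Ndufaf3 −0.00089. With each liver left out, Ndufa10 ranged from −0.088 to 0.12, Ndufa4l2 from −0.053 to 0.36, Ndufaf3 from −0.11 to 0.14 and Ndufs1 from −0.094 to 0.018.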

Other observations

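Of 11 known regulators of respiratory genes, 5 had a log2 fold change above 0, near the share of 48.4% of all genes. At an unadjusted P under 0.05 there were 0, against 7.95% of all genes higher and 1.83% lower. Their median log2 fold change was −0.053, and their median transcript length was 3755 bases. After correction for principal transcript length their median was 0.14, with 7 of 11 above 0, beside a median of 0.11 for the complex I subunits. Ppargc1a, a fasting-induced coactivator of mitochondrial genes, stood at 18.6, 4.02, 7.05 and 13.1 CPM in LWT and at 13.6, 10.2, 8.81 and 5.76 CPM in LΔRbfox2 livers, with a log2 fold change of −0.15 ± 0.45 (SE). It was highest in LWT replicate 1, and its groups overlapped. Tfam, which packages and transcribes mitochondrial DNA, had 0.32 ± 0.22 (SE), Gabpa had −0.053 ± 0.15 and Nrf1 −0.088 ± 0.24.

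Of 15 genes of mitochondrial mass and the matrix, 8 were above 0, against 48.4% of all genes, with a median of 0.17. At an unadjusted P under 0.05, 3 were higher, against 7.95% of all genes. Citrate synthase (Cs) stood at 48.1 ± 4.96 CPM in LWT and at 45.8 ± 5.69 CPM in LΔRbfox2 livers (SD, n = 4), and the outer membrane channel Vdac1 stood at 82.2 to 97.7 and at 77.4 to 99.6 CPM, in the same order of genotypes. The 3 were Tomm20, Timm23 and Tomm22. Tomm20, a receptor for imported proteins, had a log2 fold change of 0.95 ± 0.31 (SE) with a principal transcript of 4902 bases, Timm23, a channel of the inner membrane, 0.83 ± 0.32, and Tomm22 0.69 ± 0.26. After correction for principal transcript length these 3 had 1.09, 0.47 and 0.49. Tomm40, the import channel of the outer membrane, had −0.22 ± 0.21 (SE) without and −0.36 with that correction.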
